A study of Rattus norvegicus with 18 samples.

Results

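The jejunal mucosa of rats given abemaciclib at 120 mg/kg/day was compared with that of rats given ribociclib at 300 mg/kg/day. The arrays were assigned to a compound by their treatment labels, 3 per compound, which makes 6 of the 18 arrays and 2 of the 6 groups of the study. The comparison itself was chosen with earlier results of these data known. Both groups were male Sprague Dawley rats, an outbred strain, aged 6 to 8 weeks and dosed by oral gavage each day, and RNA came from scrapings of the mucosa of the jejunum, which lies between duodenum and ileum. Both compounds were given in a citrate buffer of pH 3 (10 mM) that held 0.25% Tween 80 and 0.5% hydroxypropyl methylcellulose. The 3 vehicle arrays shown beside them came from rats given 0.5% methyl cellulose, the carrier of palbociclib, so a difference from vehicle holds the carrier as well as the compound. The doses of the compounds differ, so compound and dose cannot be told apart. The study text gives 10 rats per group and dosing for 4 or 15 days, but the labels do not tie an array to a day or to an animal, and p-values therefore measure the spread between these arrays only. Abemaciclib array B is titled with a dose of 100 mg/kg/day and labelled with 120 mg/kg/day, and the treatment label was followed.

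Abemaciclib and ribociclib inhibit CDK4 and CDK6, the kinases that pair with D-type cyclins and phosphorylate the retinoblastoma protein, which frees E2F factors to switch on genes for DNA replication. Their scaffolds differ, abemaciclib being a pyrimidine linked to a benzimidazole and ribociclib a pyrrolopyrimidine that carries a cyclopentyl ring. The jejunal epithelium renews itself from dividing cells in the crypts, whose daughters move up the villus and become absorptive enterocytes, mucus-making goblet cells, hormone cells and tuft cells. Lymphocytes lie between the epithelial cells, and the epithelium itself presents antigen and responds to interferon.

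All 14217 genes with a symbol were tested in limma over the 18 arrays, with 1 mean per group, and a gene is called higher or lower where its adjusted p is under 0.05. Values are log2 RMA signals, and differences are abemaciclib minus ribociclib on the log2 scale. The tissue label was borne out by epithelial markers: Fabp1, a fatty acid binding protein of enterocytes, lay between 13.91 and 14.16 on the 6 arrays, and Vil1, Epcam, Apoa1 and Anpep were above the 99th percentile of genes on each array. Cdx1, an intestinal transcription factor, lay lower, between 7.54 and 8.46.

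Abemaciclib and ribociclib differed in a large share of the transcriptome. With abemaciclib, 2442 genes were higher (17.2% of those tested) and 1423 were lower (10.0%), 3865 in all (27.2%), and 263 of the higher and 111 of the lower ones differed by at least 4-fold. All 3 vehicle arrays lay between the groups for 192 of the genes called higher (1.35%) and 86 of those called lower (0.605%). Against vehicle, abemaciclib had 1365 genes higher (9.6%) and 1195 lower (8.41%), and ribociclib had 142 higher (0.999%) and 389 lower (2.74%), 3.73% together. These 2 comparisons share the vehicle arrays, so their values are given side by side and not set against each other. Of the calls, 63.2% were higher with abemaciclib, and 24.6% were when each array was centred on its median over genes, a scaling that moved the median difference of all genes to -0.34, against -0.05 as deposited.

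Ribociclib array A lay between the groups. Its correlation with ribociclib array B over all probe sets was 0.953, below its 0.977 with abemaciclib array B, while the 3 abemaciclib arrays correlated with each other at 0.977 to 0.984. It was the highest ribociclib array in 76.7% of the genes called higher with abemaciclib and the lowest in 66.3% of those called lower. Without it 4781 genes were called, and without abemaciclib array A, the array farthest from ribociclib on the first component, 2118 were. Without ribociclib array C there were 2426 calls. The 3′ minus 5′ beta-actin signal, a measure of RNA integrity in which a higher value means more degraded RNA, was 1.05, 0.91 and 0.86 on the abemaciclib arrays, against 0.41, 0.40 and 0.90 on the ribociclib arrays and 0.65, 0.79 and 0.57 on the vehicle arrays. With this difference as a covariate 1408 genes were called, 1326 of which are among the 3865.

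**Figure D1:**
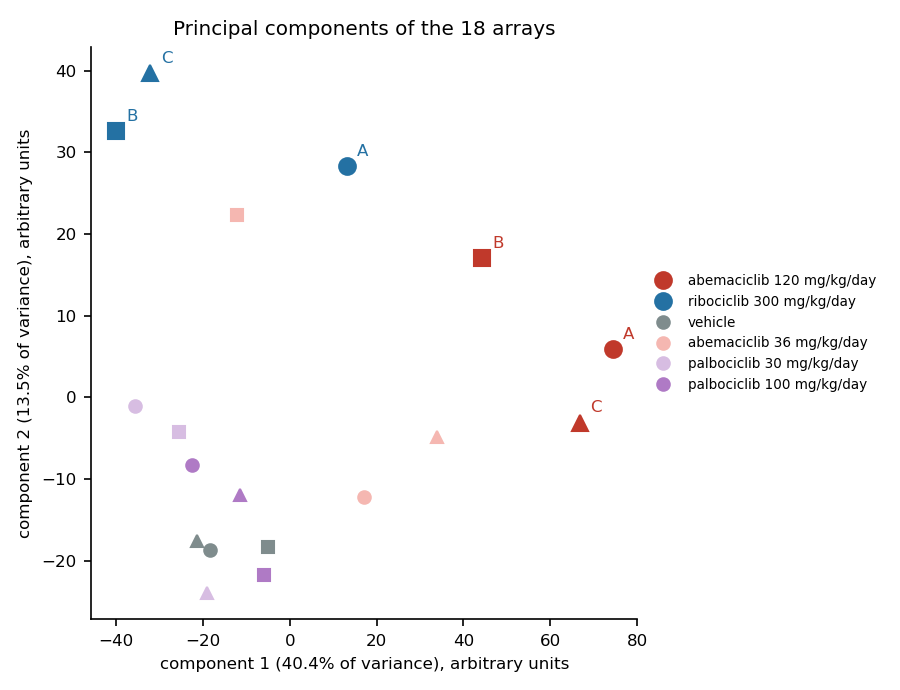
Scores of the 18 arrays on the first principal components of the log2 RMA signal, with component 1 (40.4% of the variance) across and component 2 (13.5%) up, in arbitrary units. Circles, squares and triangles are arrays A, B and C; the abemaciclib 120 arrays have component 1 scores of 74.4, 44.2 and 66.9, and the ribociclib 300 arrays have 13.2, -40.1 and -32.2.

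The largest rises with abemaciclib included many genes of dividing cells, and the largest falls included genes of interferon response, cytotoxic lymphocytes, antigen presentation and retinol or nucleoside handling. Pclaf, a factor bound to the replication clamp, had signals of 10.36, 10.08 and 10.48 on abemaciclib arrays A to C, against 8.75, 5.89 and 4.41 on ribociclib arrays and 6.51, 8.02 and 6.46 on vehicle arrays. The abemaciclib arrays were above all others, and the difference was 3.96 (SE 0.91, 15.6-fold, adjusted p = 0.00508). Myb, a transcription factor of progenitor cells, was 15.1-fold higher, and Ppp1r1b, which encodes a phosphatase inhibitor known from dopamine signalling, was 9.89-fold higher (adjusted p = 0.000171). At the other end, Rdh7, a retinol dehydrogenase, had 6.00, 6.85 and 5.75 with abemaciclib, against 10.27, 11.58 and 10.03 with ribociclib and 11.28, 10.94 and 10.45 with vehicle, a 21.5-fold difference (adjusted p = 0.000242). Ribociclib overlapped vehicle for Rdh7 and abemaciclib lay far below both. Adgrd1, an adhesion receptor of the G protein-coupled family, was 13.4-fold lower with abemaciclib, and Hspa12a, a distant relative of the Hsp70 chaperones, was 11.5-fold lower. Of these 30 genes, the 15 largest rises and 15 largest falls among genes whose arrays did not overlap, 29 stayed called when any 1 of the 6 arrays was left out, and 23 did with the beta-actin covariate. RT1-Bb was the exception to the first, without abemaciclib array A (adjusted p 0.0586). Where a group lies near or below the array medians of 5.41 to 5.51 over all probe sets, as for Gzma, Gzmb, Slc28a1, Adm, Ifit3 and Hspa12a with abemaciclib and for Ccna2, Ppp1r1b, Smoc2 and Myb with ribociclib, the fold rests on signal not shown to be above background.

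**Figure D2:**
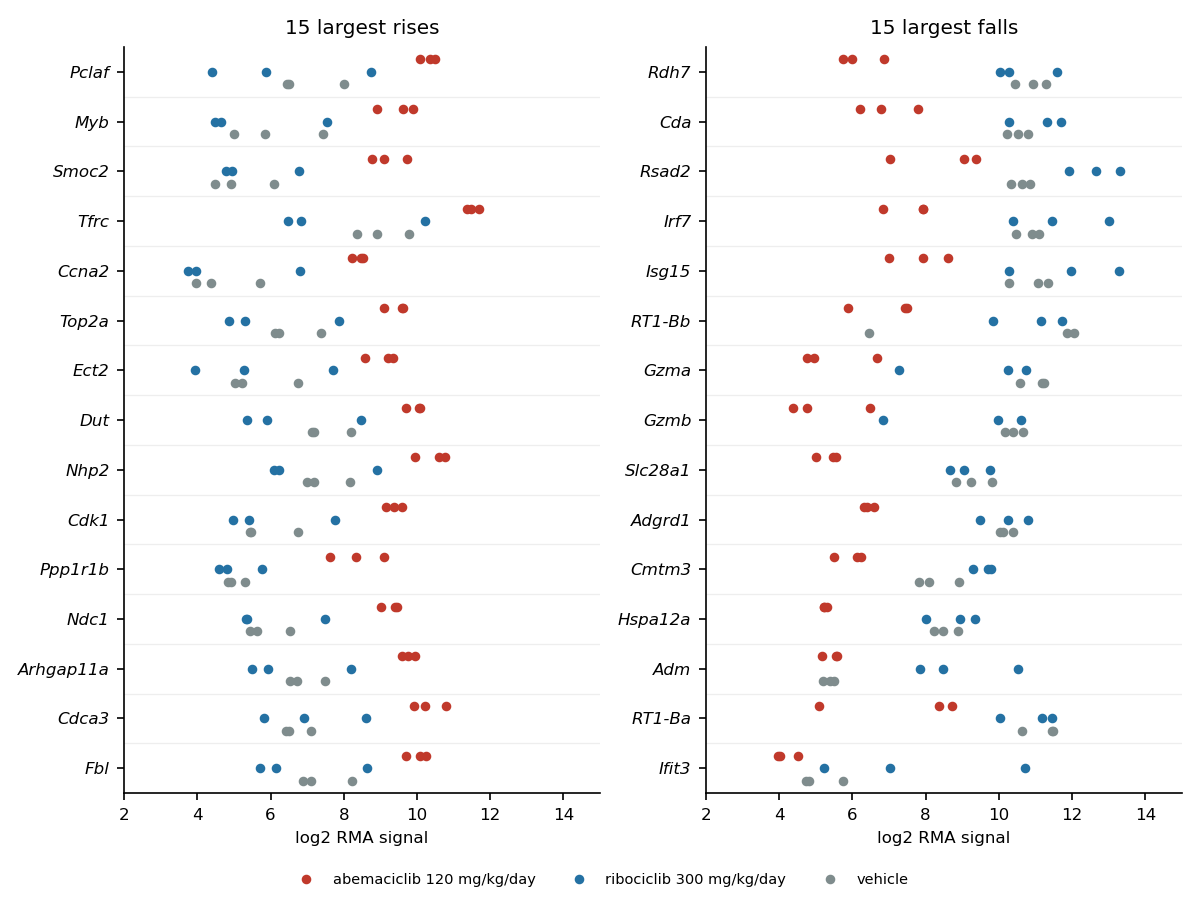
Log2 RMA signal (x axis) of the 15 genes with the largest rise (left) and the 15 with the largest fall (right) with abemaciclib 120 relative to ribociclib 300; each point is an array, with abemaciclib above ribociclib and vehicle in every row. In all 15 genes on the left the highest ribociclib point is array A, as the value of 8.75 for Pclaf shows.

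Cdk4, the D-type cyclins and Cdk2 were higher with abemaciclib, while Cdk6 was not called. Of 18 measured genes for CDK4, CDK6, their cyclins, inhibitors and pocket proteins, 8 were higher and 2 lower with abemaciclib, against 17.2% and 10.0% over all genes. The lower ones were the inhibitors Cdkn1c, which differed by -1.85 (adjusted p = 0.0296), and Cdkn2a, by -0.49 (adjusted p = 0.00976), both named after their values were seen. With the beta-actin covariate 4 of the 18 were higher and 0 lower. The number lower was also 0 without abemaciclib array A or ribociclib array C. It was 1 without abemaciclib array B, abemaciclib array C or ribociclib array B. Cdk4 had 9.79, 9.23 and 9.27 on the abemaciclib arrays, against 8.48, 6.24 and 6.59 with ribociclib and 7.40, 7.99 and 7.47 with vehicle (log2 difference 2.32, SE 0.46, adjusted p = 0.00229). The D-type cyclins that activate it were also higher, Ccnd1 by 4.81-fold (adjusted p = 0.00557), Ccnd2 by 2.95-fold (adjusted p = 0.00248) and Ccnd3 by 1.78-fold (adjusted p = 0.0177), although the Ccnd3 arrays of the compounds overlapped and its call was lost without abemaciclib array A, abemaciclib array C or ribociclib array B (highest adjusted p 0.101). Cdk2, the kinase that takes over at the start of S phase, had 7.71, 7.19 and 7.82 with abemaciclib, against 5.78, 5.26 and 5.30 with ribociclib and 5.32, 5.40 and 5.50 with vehicle, and Ccne1, its cyclin, was 3.25-fold higher (adjusted p = 0.000905). For Cdk2 the ribociclib and vehicle signals lay near the array medians of 5.41 to 5.51 and are not shown to be above background. Rbl1, the pocket protein p107 that restrains E2F, was 2.42-fold higher than with ribociclib, and for this gene ribociclib lay below vehicle by 0.86 (adjusted p = 0.0203).

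Cdk6 and Rb1 themselves did not pass. Cdk6 had 4.20, 4.31 and 4.24 with abemaciclib, against 4.21, 4.20 and 4.37 with ribociclib, all below the array medians of 5.41 to 5.51, where a signal is not shown to be above background. Rb1 differed by -0.18 (95% interval from -0.57 to 0.21) and Cdkn1a, the inhibitor p21, by -0.49 (adjusted p = 0.125). Of the 14 measured p53 targets, none was called higher or lower in limma, and 3 had an unadjusted p under 0.05, all lower with abemaciclib. The median of the CDK4/6 list was 0.08, and it turned negative under quantile re-normalization and under centring on array medians.

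Genes that E2F drives in late G1 and S phase were higher with abemaciclib almost throughout. Of 11 E2F factors and cyclins of this transition 10 were higher, and of 32 replication genes 30 were, with medians of 1.70 and 1.60. The share over all genes was 17.2%. With the beta-actin covariate 7 and 21 were higher, and 7 and 24 were when only the 6 arrays were fitted. Mcm2, a subunit of the replicative helicase, had 8.38, 7.80 and 7.80 with abemaciclib, against 5.81, 5.55 and 5.54 with ribociclib and 6.00, 6.53 and 5.94 with vehicle (5.14-fold, log2 difference 2.36, SE 0.25, adjusted p = 5.44e-05). Here ribociclib array A stood close to B and C, and the ribociclib arrays lay below the vehicle arrays. Rrm1, the large subunit of ribonucleotide reductase, was 5.92-fold higher, Pola1, the catalytic subunit of the primase-polymerase, 4.91-fold, and Uhrf1, which guides maintenance methylation to new DNA, 3.24-fold. E2f8, a repressor of the E2F family that is itself induced in S phase, had 6.61, 6.24 and 5.58 with abemaciclib, against 4.41, 3.85 and 3.87 with ribociclib and 4.01, 4.16 and 3.82 with vehicle, so that ribociclib and vehicle overlapped below the array medians.

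Mitotic genes were higher nearly throughout, with 43 of 44 measured members higher (median 2.11, which is 4.30-fold) against 17.2% of all genes. Ttk, a kinase of the spindle checkpoint, had 7.70, 6.88 and 7.29 with abemaciclib, against 5.20, 4.29 and 4.03 with ribociclib and 4.10, 4.40 and 4.13 with vehicle (6.88-fold, log2 difference 2.78, SE 0.31, adjusted p = 8.19e-05). Its ribociclib and vehicle signals lay below the array medians of 5.41 to 5.51, so the fold rests on signal not shown to be above background. Plk1, which drives mitotic entry, was 4.16-fold higher and Bub1b, another checkpoint kinase, 3.18-fold. Mki67, the proliferation marker, had 10.47, 9.90 and 9.51 with abemaciclib, against 8.38, 7.28 and 5.43 with ribociclib and 8.90, 8.01 and 7.78 with vehicle (7.62-fold, log2 difference 2.93, SE 0.64, adjusted p = 0.00379), and neither compound passed the threshold against vehicle (adjusted p = 0.0712 for abemaciclib and 0.302 for ribociclib). Against vehicle, 42 of the 44 mitotic genes were higher with abemaciclib (median 2.21) and 0 were called with ribociclib in limma (median 0.16). Of all genes 9.6% were higher with abemaciclib against vehicle and 3.73% were called with ribociclib. The count of mitotic genes higher than with ribociclib was between 41 and 43 with any 1 array left out, and 36 with the beta-actin covariate. Repair genes followed, with 12 of 16 higher, among them Exo1, a nuclease of mismatch repair (2.70-fold), Fancd2 of the Fanconi pathway (3.98-fold) and Msh6, a mismatch sensor (7.78-fold).

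**Figure D3:**
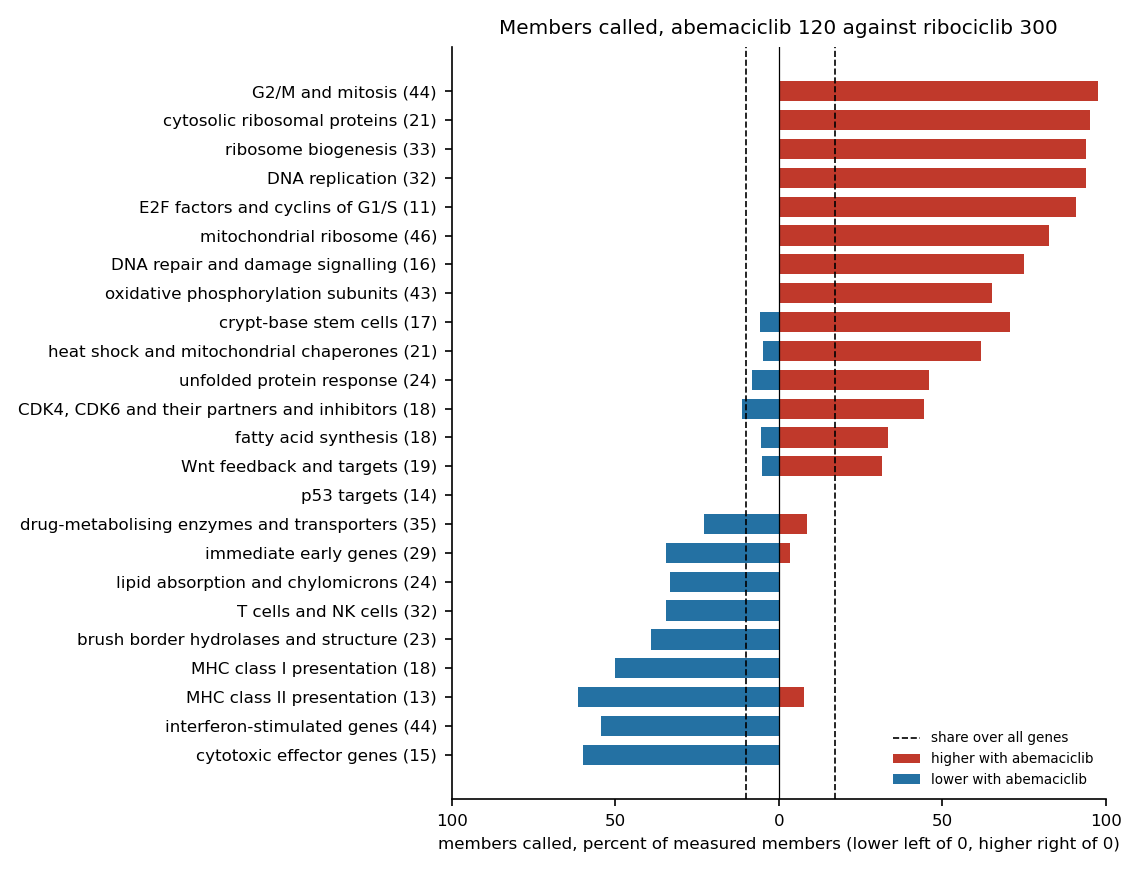
Share of each list's measured members (number in parentheses) called higher with abemaciclib 120 than with ribociclib 300 (right of 0) or lower (left of 0), in percent on the x axis, for 24 of the 57 lists; dashed lines mark the shares over all genes, 17.2% higher and 10.0% lower. Cell division and ribosome lists fill the upper right, with 43 of 44 mitotic genes higher, and interferon, antigen-presentation and lymphocyte lists fill the lower left, with 24 of 44 interferon-stimulated genes lower.

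Promoters of the mitotic genes are shown because these genes moved together. In dividing cells such genes are known to be held by the DREAM and MuvB complexes at a cell cycle homology region, or CHR, often spaced behind a CCAAT box that NF-Y binds. The letters TTTGAA (CHR) and CCAAT were searched on both strands in the RefSeq window of the rat build GRCr8 from 250 bases before to 50 after each gene's start. TTTGAA was present in 25 of the 38 mitotic genes with a promoter there (65.8%), in 2 of 30 replication genes and in 18.1% of all 27457 promoters. Both motifs were present in 21 of the 38 mitotic genes (55.3%), against 7.25% of all promoters. The 3 mitotic genes with the smallest p among those with both motifs upstream are printed, a choice made after their values were seen, as the 250 bases before the start, 5′ to 3′ on the gene's strand, with TTTGAA and CCAAT (or ATTGG, its other strand) in capitals.
Spc25 (chr3:74396719-74396968, minus strand): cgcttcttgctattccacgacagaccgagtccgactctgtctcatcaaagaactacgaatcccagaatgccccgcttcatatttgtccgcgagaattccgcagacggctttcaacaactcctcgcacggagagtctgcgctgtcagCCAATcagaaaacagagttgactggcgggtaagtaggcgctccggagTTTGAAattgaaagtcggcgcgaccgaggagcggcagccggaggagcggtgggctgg
Cdca8 (chr5:142483200-142483449, minus strand): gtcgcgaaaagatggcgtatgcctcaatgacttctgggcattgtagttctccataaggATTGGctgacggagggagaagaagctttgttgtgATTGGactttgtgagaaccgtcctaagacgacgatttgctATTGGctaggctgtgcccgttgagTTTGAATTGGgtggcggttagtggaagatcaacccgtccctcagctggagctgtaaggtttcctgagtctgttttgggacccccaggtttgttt
Kif23 (chr8:71320585-71320834, minus strand): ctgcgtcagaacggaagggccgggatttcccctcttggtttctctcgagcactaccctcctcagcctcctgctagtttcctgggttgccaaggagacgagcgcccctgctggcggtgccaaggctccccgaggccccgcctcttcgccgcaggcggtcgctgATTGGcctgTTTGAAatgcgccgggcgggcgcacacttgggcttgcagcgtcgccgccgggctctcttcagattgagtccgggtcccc
In Cdca8 the CHR and the nearest ATTGG share 1 base, so those capitals form 1 run. Spc25, a kinetochore subunit, was 7.85-fold higher with abemaciclib (adjusted p = 0.00047), Cdca8, the borealin subunit of the chromosomal passenger complex, 3.55-fold, and Kif23, a motor needed for cytokinesis, 4.97-fold. A motif match is a description of the letters and not a measured site.

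Genes that build ribosomes were higher with abemaciclib to a like extent. Of 33 ribosome biogenesis genes 31 were higher (median 1.82), against 17.2% of all genes. The count was 21 with the beta-actin covariate and 26 when only the 6 arrays were fitted. Nop56, a core protein of the particles that methylate ribosomal RNA, had 11.19, 10.59 and 10.51 with abemaciclib, against 8.89, 8.05 and 8.03 with ribociclib and 8.53, 9.09 and 8.43 with vehicle (5.43-fold, log2 difference 2.44, SE 0.32, adjusted p = 0.000235). Gar1, of the particles that make pseudouridine, was 8.29-fold higher, and Polr1b and Polr1e, subunits of RNA polymerase I, were 3.06-fold and 3.96-fold higher. Myc, the transcription factor known to drive this programme, had 8.62, 7.76 and 7.14 with abemaciclib, against 5.69, 4.66 and 4.45 with ribociclib and 4.96, 5.78 and 4.85 with vehicle (7.48-fold, log2 SE 0.49, adjusted p = 0.000925). Mxd1 and Mxi1, which compete with MYC for its partner, were 1.75-fold and 1.83-fold lower. The 12 MYC network genes held 3 higher and 3 lower members (25.0% each), against 17.2% and 10.0% over all genes. Without abemaciclib array A 1 of each was left, and without ribociclib array C 1 was higher. Mxd1 was no longer called without abemaciclib array A or ribociclib array B (highest adjusted p 0.0872).

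Cytosolic ribosomal proteins were higher in 20 of 21 cases, against 17.2% of all genes, with a median of 1.34. Rpl4 had 12.94, 12.69 and 12.74 with abemaciclib, against 12.22, 10.47 and 10.83 with ribociclib and 11.41, 11.79 and 11.49 with vehicle (3.06-fold, log2 difference 1.61, SE 0.32, adjusted p = 0.00245). Vehicle thus lay between ribociclib array A and arrays B and C. Of the 21 genes, 6 were called higher with abemaciclib against vehicle and 0 were called with ribociclib against vehicle in limma. Over all genes 9.6% were called higher with abemaciclib against vehicle and 3.73% were called with ribociclib. In the main comparison 5 of the 21 were called when only its 6 arrays were fitted or when beta-actin was a covariate.

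Mitochondrial genes were higher with abemaciclib as well. Of 46 mitochondrial ribosomal proteins 38 were higher (82.6%, median 1.23), and of 43 subunits of oxidative phosphorylation 28 were (65.1%, median 0.55). The share over all genes was 17.2%. Mrpl15, of the large mitochondrial subunit, had 10.94, 10.54 and 10.86 with abemaciclib, against 9.67, 9.28 and 9.20 with ribociclib and 10.52, 10.53 and 10.54 with vehicle (2.63-fold, log2 difference 1.39, SE 0.21, adjusted p = 0.00047). For this gene abemaciclib was 0.25 above vehicle, which did not pass (adjusted p = 0.485), and ribociclib lay below it by 1.15 (adjusted p = 0.00795). Ndufs3, a subunit of complex I, was 1.97-fold higher with abemaciclib than with ribociclib, which lay 0.84 below vehicle (adjusted p = 0.039). For oxidative phosphorylation the median difference from vehicle was 0.06 with abemaciclib and -0.51 with ribociclib. The mitochondrial ribosome count was 25 when only the 6 arrays were fitted and 15 with the beta-actin covariate. The oxidative phosphorylation count fell to 10 without ribociclib array B, to 14 without abemaciclib array C, to 16 without abemaciclib array A or ribociclib array C, and to 9 with the beta-actin covariate, whereas it was 37 without ribociclib array A.

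Chaperones were mostly higher with abemaciclib. Of 21 heat shock and mitochondrial chaperone genes 13 were higher and 1 was lower with abemaciclib (median 1.31). Shares over all genes were 17.2% higher and 10.0% lower. Hspe1, the lid of the mitochondrial chaperonin, had 12.72, 12.20 and 12.66, against 11.22, 9.46 and 9.01 with ribociclib and 10.39, 11.09 and 10.28 with vehicle (6.18-fold, log2 difference 2.63, SE 0.48, adjusted p = 0.00155), and Fkbp4, an Hsp90 partner, was 4.29-fold higher. The lower one was Dnajb1, a stress-induced Hsp40, which had 9.55, 9.25 and 10.34 with abemaciclib, against 11.72, 12.02 and 11.28 with ribociclib and 10.16, 10.43 and 10.64 with vehicle. It was 3.87-fold lower with abemaciclib (adjusted p = 0.00035), and ribociclib lay above vehicle by 1.26 (adjusted p = 0.0196). The unfolded protein response list had 11 of 24 members higher, among them the endoplasmic reticulum chaperones Pdia4 (3.51-fold) and Hsp90b1 (2.38-fold), and 2 were lower. Of the lower ones, Dnajb9, an ER co-chaperone and classical target of the pathway, was 2.72-fold lower with abemaciclib, with ribociclib above vehicle by 1.31 (adjusted p = 0.0245). The number higher on this list was 5 without abemaciclib array A, abemaciclib array C, ribociclib array B or ribociclib array C, and 1 with the beta-actin covariate.

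Crypt stem cell genes were higher with abemaciclib in 12 of 17 cases (median 0.99), and 1, Nrn1, named after its value was seen, differed by -0.25 (adjusted p = 0.0486). Smoc2, a matricellular protein of the crypt base, had 9.73, 9.10 and 8.76 with abemaciclib, against 6.78, 4.94 and 4.79 with ribociclib and 4.92, 6.09 and 4.47 with vehicle (12.9-fold, log2 difference 3.69, SE 0.58, adjusted p = 0.000651). Cdca7 was 5.45-fold higher and Aqp4, a water channel, 5.66-fold. Lgr5, the receptor that defines these cells, was near background on all arrays, with 4.66, 4.94 and 4.18 against 3.95, 3.99 and 4.03 with ribociclib and 3.74, 3.99 and 3.94 with vehicle (1.52-fold, log2 difference 0.60, SE 0.15, adjusted p = 0.00768). Of 19 genes of Wnt feedback and Wnt targets 6 were higher and 1 lower, and 4 of the higher ones are on the stem cell list as well. Axin2, a negative feedback gene of the pathway, had 8.58, 8.51 and 7.25, against 5.50, 6.72 and 6.25 with ribociclib and 6.60, 6.24 and 6.34 with vehicle (3.87-fold, log2 difference 1.95, SE 0.35, adjusted p = 0.00128), and Cd44, a surface receptor of crypt cells, was 1.98-fold higher. The lower one was Frat2, which keeps GSK3 from beta-catenin. It had 7.07, 7.57 and 8.10 with abemaciclib, against 8.87, 10.38 and 10.27 with ribociclib and 9.70, 9.73 and 9.74 with vehicle (4.77-fold lower, log2 difference -2.26, SE 0.33, adjusted p = 0.000456). With the beta-actin covariate 7 stem cell genes and 3 Wnt genes were higher. Among 20 genes of epithelial regeneration, 3 were higher and 1 lower, no larger shares than the 17.2% and 10.0% of all genes, and without abemaciclib array C the counts were 1 higher and 3 lower. Krt19, a keratin of crypt and duct cells, was 3.72-fold higher, and Anxa8, an annexin, was 2.27-fold higher, a call lost without abemaciclib array C or ribociclib array B (highest adjusted p 0.0794). The lower one, Ankrd1, a target of YAP, differed by -0.47 (adjusted p = 0.0454), a call lost without abemaciclib array A or ribociclib array B or C.

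**Figure D4:**
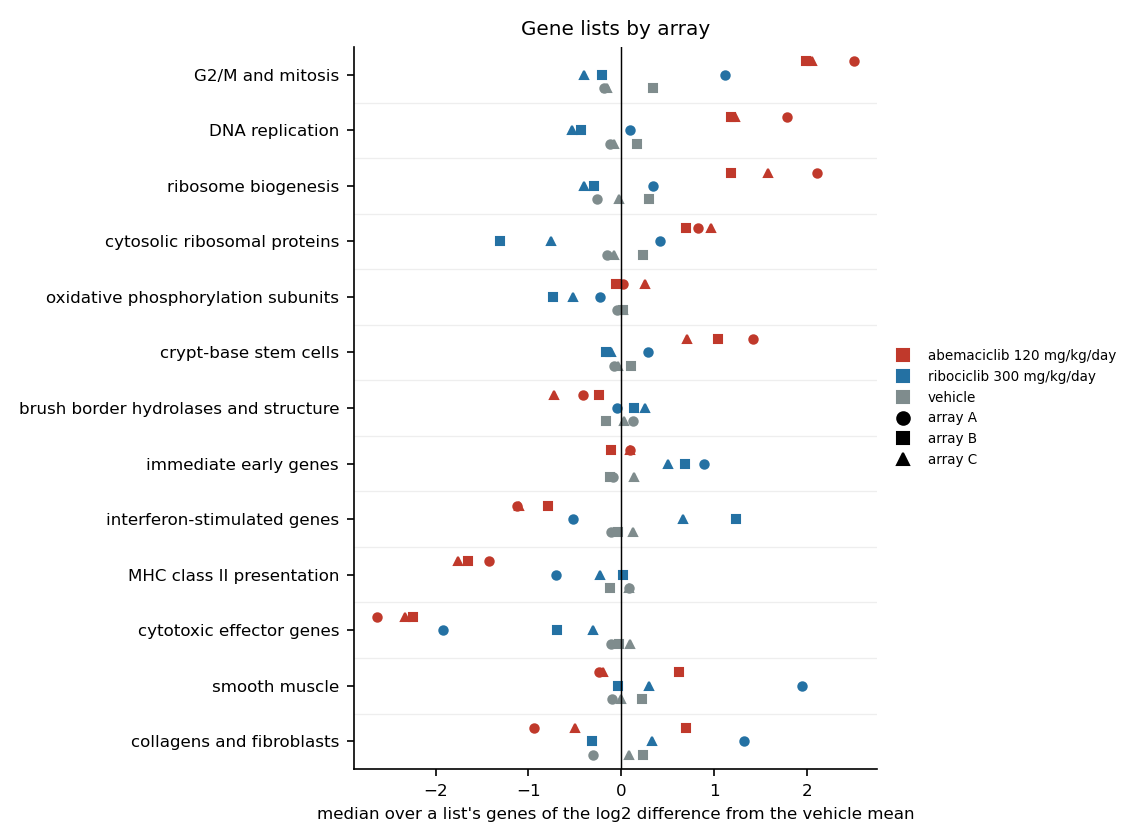
Median over the genes of 13 lists of the log2 difference from the vehicle mean (x axis), per array; colours are groups, with abemaciclib 120 above ribociclib 300 and vehicle in each row, and shapes are arrays A, B and C. For mitosis the abemaciclib arrays have 2.506, 1.996 and 2.06 and the ribociclib arrays 1.12, -0.21 and -0.40, and for smooth muscle ribociclib array A stands apart at 1.95.

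Many interferon-stimulated genes were lower with abemaciclib. Of 44 measured genes 24 were lower (54.5%, against 10.0% of all genes), the other 20 did not pass, and the median was -1.66. Rsad2, the antiviral protein viperin, had 9.37, 9.04 and 7.02 with abemaciclib, against 11.90, 13.32 and 12.64 with ribociclib and 10.62, 10.32 and 10.84 with vehicle. All vehicle arrays lay between the groups, the difference was 17.7-fold (adjusted p = 0.00047), abemaciclib lay 2.12 below vehicle (adjusted p = 0.0246), and ribociclib was 2.03 above vehicle without passing (adjusted p = 0.0761). Irf7, the factor that amplifies interferon production, had 7.92, 7.94 and 6.84 with abemaciclib, against 10.38, 13.01 and 11.46 with ribociclib and 10.47, 11.09 and 10.91 with vehicle (16.6-fold lower, log2 difference -4.06, SE 0.63, adjusted p = 0.000611). Isg15, a ubiquitin-like modifier, was 15.9-fold lower (adjusted p = 0.0027), and Oasl, a relative of the sensors of double-stranded RNA, 7.07-fold lower (adjusted p = 0.00196). Ifit3, which binds foreign RNA, had 3.98, 4.50 and 4.03, against 5.22, 10.71 and 7.03 with ribociclib and 4.81, 4.74 and 5.75 with vehicle, so that ribociclib array A overlapped vehicle and array B stood far above.

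Within ribociclib these genes spread widely, and counts depended on single arrays. The median of the list relative to the vehicle mean was -1.13, -0.79 and -1.10 on the abemaciclib arrays, against -0.52, 1.24 and 0.67 on the ribociclib arrays. The number lower was 11 without ribociclib array B, 14 without array C, 31 without array A, 15 without abemaciclib array A and 16 without abemaciclib array C. It was 9 when only the 6 arrays were fitted and 4 with the beta-actin covariate, and with the covariate Isg15 had an adjusted p of 0.0528 and Irf7 of 0.0213. Members of the Oas, Ifit, Gzm and RT1 families are similar in sequence, and their probe sets may detect relatives.

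Promoters of these genes are shown because interferon acts on them through the interferon-stimulated response element, or ISRE, the site of the STAT and IRF factors. The letters GAAA, any 2 bases and GAAA again were present on either strand in 23 of the 35 interferon-stimulated genes with a RefSeq promoter (65.7%), against 3.77% of all 27457 promoters, and in 13 of the 19 that were called. The called genes with the smallest p whose match lies before the start are printed as the 250 bases before it, with the match in capitals; the choice was made after their values were seen.
Rsad2 (chr6:48788121-48788370, minus strand): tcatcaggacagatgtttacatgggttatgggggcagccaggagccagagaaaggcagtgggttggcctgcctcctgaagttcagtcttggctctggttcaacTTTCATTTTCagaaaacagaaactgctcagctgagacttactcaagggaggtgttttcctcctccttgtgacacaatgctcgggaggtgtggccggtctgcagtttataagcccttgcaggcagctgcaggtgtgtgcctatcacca
Irf7 (chr1:205800024-205800273, minus strand): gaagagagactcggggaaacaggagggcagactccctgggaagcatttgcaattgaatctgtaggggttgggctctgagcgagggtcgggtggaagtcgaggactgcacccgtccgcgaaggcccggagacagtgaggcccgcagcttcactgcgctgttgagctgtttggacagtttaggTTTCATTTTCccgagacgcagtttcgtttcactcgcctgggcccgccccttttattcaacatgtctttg
Ifih1 (chr3:67683969-67684218, minus strand): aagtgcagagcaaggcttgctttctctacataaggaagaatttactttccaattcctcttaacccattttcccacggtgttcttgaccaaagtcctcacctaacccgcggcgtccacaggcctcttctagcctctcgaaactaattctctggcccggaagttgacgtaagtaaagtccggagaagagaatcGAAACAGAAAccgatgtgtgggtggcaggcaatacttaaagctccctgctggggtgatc
Rsad2 and Irf7 carry the same 10 bases at the match, read on the strand opposite to the gene, at positions -147 and -69, and Ifih1 carries its match at -59. Ifih1, a sensor of viral RNA, had 6.33, 6.88 and 7.51 with abemaciclib, against 7.79, 9.37 and 8.73 with ribociclib and 8.06, 8.05 and 8.29 with vehicle (3.31-fold lower, log2 difference -1.73, SE 0.39, adjusted p = 0.00498).

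Antigen presentation was lower with abemaciclib as well. Of 13 genes of MHC class II presentation 8 were lower (61.5%) and 1 higher (7.69%), with a median of -1.55. Of all genes 10.0% were lower and 17.2% higher. With any 1 array left out 7 or 8 class II genes were lower, although 2 were with the beta-actin covariate. Cd74, the invariant chain that escorts class II molecules, had 8.32, 10.48 and 10.04, against 11.90, 13.04 and 12.62 with ribociclib and 12.87, 12.46 and 12.80 with vehicle (7.49-fold lower, log2 difference -2.91, SE 0.46, adjusted p = 0.000654). RT1-DMb, part of the peptide loader, had 6.16, 7.84 and 7.99, against 9.59, 10.91 and 10.54 with ribociclib and 10.66, 10.38 and 10.86 with vehicle, 8.09-fold lower with abemaciclib (adjusted p = 0.000407). The 3 abemaciclib arrays were below all 6 others for both genes, and ribociclib differed from vehicle by -0.19 for Cd74 (adjusted p = 0.84) and by -0.29 for RT1-DMb (adjusted p = 0.729). RT1-Bb, a class II chain, was 15.7-fold lower than with ribociclib, but vehicle array B had 6.44, near the abemaciclib arrays, against 11.86 and 12.05 on vehicle arrays A and C. Of 18 genes of class I presentation 9 were lower (median -0.77), and 3 were when only the 6 arrays were fitted. RT1-S3, a non-classical class I gene, was 9.34-fold lower (adjusted p = 0.000327), Tapbp, which loads peptides onto class I, 3.22-fold, and B2m, the light chain, 1.44-fold.

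Lymphocyte genes were lower with abemaciclib in part, and ribociclib array A was low for them too. Gzma, a granule protease of cytotoxic cells, had 4.94, 4.76 and 6.66 with abemaciclib, against 7.28, 10.23 and 10.74 with ribociclib and 10.57, 11.18 and 11.22 with vehicle (15.6-fold lower, log2 difference -3.96, SE 0.69, adjusted p = 0.00111). Gzmb gave 4.37, 4.76 and 6.49, against 6.85, 9.98 and 10.61 with ribociclib and 10.16, 10.38 and 10.66 with vehicle. For both, ribociclib array A lay between the abemaciclib arrays and all the rest. Of 15 cytotoxic effector genes 9 were lower (60.0%, median -1.05), and of 32 T cell and NK cell genes 11 were (34.4%). Of all genes 10.0% were lower. Cd7, a surface protein of intraepithelial lymphocytes, was 8.42-fold lower (adjusted p = 0.00136), Cd3e, of the T cell receptor complex, 3.26-fold, and Gzmm, another granzyme, 3.97-fold. Against vehicle, 11 of the 15 effector genes were lower with abemaciclib (median -2.44) and 3 with ribociclib (median -1.11). Over all genes the shares lower against vehicle were 8.41% with abemaciclib and 2.74% with ribociclib. In scrapings, fewer cells of a type and less RNA per cell cannot be told apart. The T cell and NK cell count was 17 without ribociclib array A and 3 when only the 6 arrays were fitted. It was 8 without abemaciclib array A or ribociclib array C, and 9 without ribociclib array B. The effector count was 5 without abemaciclib array A or ribociclib array C, 3 with the 6 arrays alone and 7 with the beta-actin covariate.

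**Figure D5:**
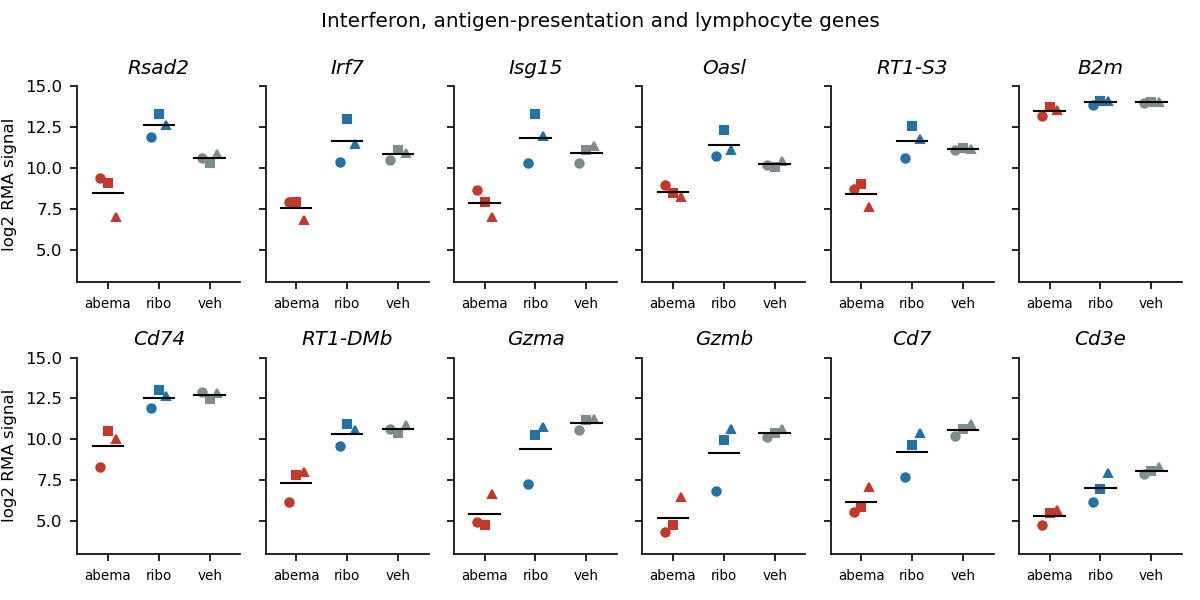
Log2 RMA signal (y axis) of 12 interferon, antigen-presentation and lymphocyte genes on the abemaciclib 120 (abema), ribociclib 300 (ribo) and vehicle (veh) arrays; circles, squares and triangles are arrays A, B and C and bars are group means. In each panel the 3 abemaciclib points lie below the 3 ribociclib points, and for Gzma the circle of ribociclib array A, at 7.28, lies below the square and the triangle of ribociclib arrays B and C.

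Cytokine genes were lower with abemaciclib in part, and the mast cell list held 1 called gene. On the cytokine list 30.2% of members were lower and on the mast cell list 5.56%, against 10.0% of all genes. Of 43 interleukins, chemokines and receptors 13 were lower with abemaciclib, among them Ccl20, a chemokine of the epithelium over lymphoid follicles, with 9.84, 8.79 and 9.14, against 12.75, 10.72 and 12.12 with ribociclib and 10.20, 9.59 and 9.46 with vehicle (6.08-fold lower, log2 difference -2.60, SE 0.60, adjusted p = 0.0053). The count was 5 without abemaciclib array A, 7 without ribociclib array C, 5 when only the 6 arrays were fitted and 3 with the beta-actin covariate. Cxcl16, which attracts intraepithelial lymphocytes, was 2.76-fold lower. Mcpt9, a protease of mucosal mast cells, was the single called gene of 18 on the mast cell list, with 4.22, 4.28 and 5.15, against 5.76, 7.68 and 8.69 with ribociclib and 9.05, 9.12 and 9.78 with vehicle (7.10-fold lower, log2 difference -2.83, SE 0.58, adjusted p = 0.00281).

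Enterocyte genes were lower with abemaciclib in part. Of 23 brush border genes 9 were lower (39.1%, median -0.55), and of 24 genes of lipid absorption 8 were (33.3%). Over all genes 10.0% were lower. Ace, a peptidase of the brush border, had 10.41, 11.16 and 9.91 with abemaciclib, against 12.34, 12.71 and 12.51 with ribociclib and 13.07, 12.12 and 12.47 with vehicle (4.09-fold lower, log2 difference -2.03, SE 0.29, adjusted p = 0.000434). Ggt1, which cleaves glutathione, was 7.35-fold lower, Amn, part of the vitamin B12 receptor, 3.53-fold, and Treh, the trehalase, 4.46-fold. Cd36, a fatty acid transporter, had 9.21, 11.08 and 10.87, against 12.89, 12.66 and 13.16 with ribociclib and 12.95, 12.85 and 12.94 with vehicle (5.73-fold lower, log2 difference -2.52, SE 0.40, adjusted p = 0.000664), and Abcg8, a subunit of the sterol exporter, was 4.99-fold lower. The brush border count was 4 without abemaciclib array C, 5 without abemaciclib array A or ribociclib array C, and 3 with the beta-actin covariate. The lipid absorption count was 5 without ribociclib array B, and 3 with the 6 arrays alone or with the covariate. Alpi, the intestinal alkaline phosphatase, varied too widely to separate the compounds, with 10.29, 11.32 and 9.95 against 9.61, 13.02 and 10.22 with ribociclib and 12.36, 11.86 and 12.66 with vehicle (adjusted p = 0.636). Muc2, the main mucin of goblet cells, differed by 0.14 (95% interval from -0.10 to 0.38) and Fabp1 by -0.09 (95% interval from -0.24 to 0.07).

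A nucleoside transporter and a nucleoside enzyme were among the 15 largest falls. Slc28a1, the concentrative transporter that takes pyrimidine nucleosides from the lumen, had 5.01, 5.56 and 5.46 with abemaciclib, against 9.04, 9.77 and 8.67 with ribociclib and 9.82, 8.84 and 9.23 with vehicle (14.1-fold lower, log2 difference -3.82, SE 0.39, adjusted p = 5.44e-05). Cda, cytidine deaminase, had 6.20, 7.80 and 6.79, against 10.27, 11.31 and 11.70 with ribociclib and 10.22, 10.79 and 10.51 with vehicle (log2 difference -4.17, SE 0.51, adjusted p = 0.000176). The list of mineral, vitamin and nucleoside transporters that holds Slc28a1 had 4 of 20 members higher and 2 lower, near the shares over all genes, and Dut, an enzyme of pyrimidine nucleotides, was 10.3-fold higher with abemaciclib. Ribociclib overlapped vehicle for Slc28a1 and Cda, and both calls held in every fit that left out an array and with the beta-actin covariate. Among 35 drug-metabolising enzymes and transporters 8 were lower (22.9%) and 3 higher (8.57%), against 10.0% and 17.2% over all genes. The number higher was 0 without abemaciclib array A, abemaciclib array C or ribociclib array C and 1 without ribociclib array B. With the beta-actin covariate 5 were lower. Adh4, an alcohol dehydrogenase that also acts on retinol, was 8.87-fold lower, Cyp3a18 2.47-fold and Cyp2j4 2.24-fold. Cyp1a1, the enzyme induced through the aryl hydrocarbon receptor, ranged from 6.41 to 8.05 with abemaciclib, from 5.17 to 9.14 with ribociclib and from 5.20 to 12.93 with vehicle, so no difference could be resolved (adjusted p = 0.799).

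Retinoid, iron and bile acid lists each held a few called genes, some with large differences. The retinoid list had 2 of 18 members higher and 2 lower, with differences from -4.43 to 2.37. The iron list had 2 of 11 higher and 0 lower, and the ileal and bile acid list 1 of 14 higher and 4 lower. Over all genes 17.2% were higher and 10.0% lower. Bco1, which splits dietary carotene into retinal, had 9.93, 11.00 and 11.16 with abemaciclib, against 8.68, 9.29 and 7.01 with ribociclib and 11.88, 9.99 and 10.28 with vehicle (5.17-fold higher, log2 difference 2.37, SE 0.59, adjusted p = 0.00857). For this gene abemaciclib minus vehicle was -0.02, which did not pass (adjusted p = 0.99), and ribociclib lay 2.39 below it (adjusted p = 0.0379). Without ribociclib array C the Bco1 difference was not called (adjusted p = 0.0517). Tfrc, the transferrin receptor that dividing cells use to take up iron, had 11.68, 11.48 and 11.36, against 10.21, 6.82 and 6.47 with ribociclib and 8.92, 9.77 and 8.36 with vehicle (12.7-fold higher, log2 difference 3.67, SE 0.81, adjusted p = 0.00407), whereas the ferroxidase Heph of enterocytes differed by -0.24 (adjusted p = 0.272). Cyp27a1, a mitochondrial sterol hydroxylase, had 7.38, 7.96 and 7.25, against 10.33, 10.41 and 10.29 with ribociclib and 11.21, 10.31 and 10.52 with vehicle (7.03-fold lower, log2 difference -2.81, SE 0.23, adjusted p = 1.77e-05). Fabp6, the bile acid binding protein of the ileum, did not separate the compounds, with 13.56, 13.36 and 12.95 with abemaciclib, 14.24, 10.60 and 13.48 with ribociclib and 7.81, 8.67 and 5.25 with vehicle. Both compounds lay above all vehicle arrays for it, by 6.05 with abemaciclib (adjusted p = 0.0123) and by 5.53 with ribociclib, which did not pass (adjusted p = 0.0584).

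Immediate early genes were lower with abemaciclib in part. Of 29 immediate early genes 10 were lower with abemaciclib and 1, Myc, was higher (median -0.65), and relative to vehicle the medians were 0.05 for abemaciclib and 0.86 for ribociclib. The count lower was 6 when only the 6 arrays were fitted and 3 with the beta-actin covariate. Maff, a small MAF factor, had 6.25, 6.23 and 7.12 with abemaciclib, against 9.02, 9.63 and 9.10 with ribociclib and 6.08, 6.09 and 6.81 with vehicle (6.58-fold lower, log2 difference -2.72, SE 0.34, adjusted p = 0.000188). On the glycolysis and hypoxia list 4 of 22 genes were lower (18.2%, against 10.0% of all genes) and 1 higher (4.55%, against 17.2%). The list had 2 lower genes when only the 6 arrays were fitted and 1 with the covariate. Its member Adm, which encodes the vasodilator adrenomedullin and is known to respond to hypoxia, had 5.57, 5.17 and 5.55, against 7.84, 10.52 and 8.47 with ribociclib and 5.20, 5.39 and 5.51 with vehicle (11.4-fold lower, log2 difference -3.51, SE 0.45, adjusted p = 0.000209). In both genes the abemaciclib and vehicle arrays overlapped and ribociclib lay above vehicle, by 2.92 for Maff (adjusted p = 0.000547) and by 3.58 for Adm (adjusted p = 0.000722). Klf6, a zinc finger factor, was 2.53-fold lower with abemaciclib, and Vegfa of the hypoxia list, the vascular growth factor, 3.12-fold. The glucocorticoid and fasting list had 7 of 24 members lower, a count of 2 without abemaciclib array A, 3 without abemaciclib array C, 4 without ribociclib array C, and 2 with the 6 arrays alone or the covariate. Of its members, Dusp1, a phosphatase of MAP kinases, was 2.95-fold lower and Tsc22d3, known as GILZ, 3.37-fold lower. Ribociclib lay 1.55 above vehicle for Dusp1 (adjusted p = 0.0467) and abemaciclib lay 2.21 below vehicle for Tsc22d3 (adjusted p = 0.00588). The Tsc22d3 call between the compounds was lost without abemaciclib array A, abemaciclib array C or ribociclib array C (highest adjusted p 0.0769). Hexim1, which binds the elongation kinase P-TEFb, lay below vehicle with both compounds, by 1.20 with abemaciclib (adjusted p = 0.0368) and by 1.51 with ribociclib (adjusted p = 0.039), and did not separate them.

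Metabolic lists were mixed, and their counts stand beside 17.2% higher and 10.0% lower over all genes. Of 41 genes of serine and glycine synthesis and other ATF4 targets 10 were higher and 6 lower, with 2 lower without abemaciclib array B, 3 without ribociclib array B and 1 with the beta-actin covariate. Psat1 and Phgdh, enzymes of serine synthesis, were 7.67-fold (adjusted p = 0.000569) and 2.96-fold higher, and Shmt1, which links serine to folate, 4.79-fold. Psat1 had 9.32, 8.75 and 9.12 with abemaciclib, against 7.04, 6.06 and 5.28 with ribociclib and 5.47, 6.07 and 5.29 with vehicle. Nupr1, a stress-induced nuclear protein, was 2.70-fold lower. Of 18 genes of fatty acid synthesis 6 were higher, and 3 were without ribociclib array C or with the covariate, with Fasn, the fatty acid synthase, at 9.85, 8.91 and 8.94, against 7.44, 5.99 and 6.06 with ribociclib and 6.62, 6.92 and 6.73 with vehicle (6.67-fold, log2 difference 2.74, SE 0.43, adjusted p = 0.000654). Of 21 cholesterol synthesis genes 2 were higher and 2 lower. The number higher was 12 without ribociclib array A. It was 0 without abemaciclib array A or C or ribociclib array B or C, and 0 with the 6 arrays alone or the covariate. Of the lower pair Insig1, which is itself a sterol-regulated brake, was 2.11-fold lower with abemaciclib, and ribociclib lay above vehicle by 1.74 (adjusted p = 0.00949). Its call was lost without abemaciclib array A or ribociclib array B (highest adjusted p 0.126). Of 24 NRF2 targets 5 were higher and 6 lower, and 2 were higher without abemaciclib array A, abemaciclib array C or ribociclib array C, with Nqo1, a quinone reductase, 5.51-fold higher (adjusted p = 0.00118) and Akr1b8, an aldo-keto reductase, 2.44-fold lower (adjusted p = 0.000409).

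Transcripts of smooth muscle and fibroblasts varied between arrays of the same group. The median of 15 smooth muscle genes relative to the vehicle mean was -0.24, 0.62 and -0.20 on the abemaciclib arrays, against 1.95, -0.03 and 0.31 on the ribociclib arrays, and that of 31 collagen and fibroblast genes was -0.94, 0.70 and -0.50, against 1.33, -0.31 and 0.33. Ribociclib array A, the array between the groups, was thus also the highest for both lists. Of the smooth muscle genes 1 was called, Tagln, an actin-binding protein, 3.59-fold lower with abemaciclib (adjusted p = 0.0258), a call lost without ribociclib array A, abemaciclib array A or abemaciclib array C (highest adjusted p 0.137), and 5 of the collagen and fibroblast genes were lower, among them Fbln1, a matrix protein (4.84-fold, log2 difference -2.28, SE 0.47, adjusted p = 0.00283). Of all genes 10.0% were lower, against 6.67% of the smooth muscle list and 16.1% of the collagen and fibroblast list. The collagen count was 1 without ribociclib array A or C, 2 without abemaciclib array A or C, and 14 without abemaciclib array B. The part of these transcripts in the other results was not tested. Endothelial, neuronal and neutrophil lists had 1 of 16, 0 of 13 and 0 of 12 members called in limma, and the neuronal and neutrophil lists had 2 members each at an unadjusted p under 0.05, all lower with abemaciclib.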

How the data were processed

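RNA of jejunal mucosal scrapings was measured on Affymetrix rat expression arrays, and the authors deposited log2 signals made by RMA (background correction, quantile normalization and probe summary), per the submitters' processing notes, which name Affymetrix Expression Console and Transcriptome Analysis Console. Scanner files were not used here, so probe detection is not known. Of 31099 probe sets, 57 were controls, 20826 had 1 gene symbol in GEO's platform annotation, 436 had several and 9780 were unnamed. The brightest probe set stood for each of 14217 genes. Arrays were grouped by their treatment labels.

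The deposited log2 values were fitted with limma 3.58.1 in R 4.3.3, with a mean for each of the 6 groups over 18 arrays, moderated with a trend and adjusted by Benjamini-Hochberg over all genes. With 3 arrays a side, exact permutation p-values stop at 0.1, so none were used. Simulated data with known changes had 50 genes changed at each fold and the same spread in every group. There 28% of genes changed 1.5-fold, 64% of those changed 2-fold and 96% of those changed 4-fold were recovered. In the deposited data 27.2% of genes were called, so these shares need not hold there. The number of arrays limits the precision.

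The text names the 15 largest rises and 15 largest falls among genes that were called and had no overlap between groups, up to 4 members of smallest p of each list it describes, and a set of 18 genes given whatever their values. Genes outside this rule are said to have been named after their values were seen. The comparison, its members and the 57 gene lists were chosen with earlier results of these data known. Alternatives were quantile re-normalization, centring, a filter on dim genes, other probe set rules, no trend, the 6 arrays alone, array weights, the replicate letter as a block, a beta-actin covariate, a fold minimum of 1.5 and leaving out each array. Promoter sequences came from RefSeq, build GRCr8.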

Additional observations from a re-analysis of the deposited data

Results flagged for a closer look

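For 2 of the genes named by size, every abemaciclib array lay below and every ribociclib array lay above the vehicle arrays. The first was Rsad2, the antiviral protein viperin, with a difference of -4.14, made up of -2.12 for abemaciclib and 2.03 for ribociclib relative to vehicle, of which the ribociclib value did not pass (adjusted p = 0.0761). The second was Cmtm3, a membrane protein of the chemokine-like factor family, with signals of 5.50, 6.23 and 6.12 with abemaciclib, against 9.80, 9.29 and 9.71 with ribociclib and 7.81, 8.10 and 8.90 with vehicle. Its difference was -3.65 (12.6-fold lower, adjusted p = 0.000747), made up of -2.32 for abemaciclib (adjusted p = 0.0122) and 1.33 for ribociclib (adjusted p = 0.221). The difference between the compounds was tested in limma. The vehicle arrays had another carrier, and its part was not tested.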

How the results depend on the processing

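Of 3865 genes called between abemaciclib and ribociclib, 2442 higher and 1423 lower, centring on array medians gave 6987 with 5266 lower, a fit of the 6 arrays alone gave 1378 (1018 higher, 360 lower), and the beta-actin covariate gave 1408 (879 higher, 529 lower). Asking for a fold of at least 1.5 left 937 lower. Leaving out 1 array gave 2118 to 4781 calls, 1511 to 2672 higher and 607 to 2109 lower; the count moved by over 1.5 times without abemaciclib array A (2118) or ribociclib array C (2426), and the lower count also without ribociclib array B (930). The cause was not tested. Same-lettered arrays did not deviate together (correlations of 0.05, 0.10 and -6e-04), and with the letter as a replicate block 4127 genes were called. Some differences of genes that were not called changed sign. That of Cdk6 was 0.099 after quantile re-normalization, 0.008 with the covariate and -0.042 to 0.043 with 1 array left out. That of Muc2 was -0.144 centred. With the covariate Alpi had 0.387, Fabp6 -0.432 and Cyp1a1 -1.57, and Cyp1a1 had -0.35 with array weights. With 1 array left out the range was -1.096 to 0.604 for Alpi, -0.569 to 1.247 for Fabp6, -0.25 to 1.733 for Cyp1a1 and -0.112 to 0.807 for Hexim1. Arrays give no depth, and signals near the array medians limit what dim genes can show. Any fold of a gene with a group near or below those medians rests on signal not shown to be above background.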

Other observations

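Secretory cell lists had shares near those of all genes, 17.2% higher and 10.0% lower. Of 16 goblet cell genes 4 were higher and 1 lower with abemaciclib, and of 20 Paneth cell and antimicrobial genes 5 were higher and 2 lower. With 1 array left out, goblet genes higher numbered 1 to 4, with 1 without abemaciclib array A or C and 2 without ribociclib array B. Paneth genes higher numbered 2 without abemaciclib array A or ribociclib array C, 3 without abemaciclib array C or ribociclib array B and 8 without ribociclib array A. Spink4, a secreted peptide of goblet cells, had 12.45, 12.26 and 12.41 with abemaciclib, against 10.54, 10.10 and 8.95 with ribociclib and 7.48, 9.29 and 7.68 with vehicle (5.70-fold higher, adjusted p = 0.0304). Every abemaciclib array lay above vehicle, and ribociclib array C overlapped it. Its call was lost without any abemaciclib array or without ribociclib array B or C. Reg3b, an antimicrobial lectin, had 9.35, 10.34 and 13.25 with abemaciclib, against 13.45, 14.00 and 13.02 with ribociclib and 13.55, 13.89 and 13.42 with vehicle (5.71-fold lower, adjusted p = 0.00768), with abemaciclib array C among the others. Reg3 relatives are similar in sequence and may share signal.

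Hormone, tuft cell, clock and lysosome lists had 3 of 22, 4 of 12, 3 of 17 and 6 of 29 members lower and 0 higher in limma, where 10.0% of all genes were lower. Sct, the hormone secretin, had 8.30, 8.23 and 8.16 with abemaciclib, against 9.34, 9.68 and 9.64 with ribociclib and 8.81, 8.65 and 9.004 with vehicle (2.51-fold lower, adjusted p = 0.00269), and vehicle lay between the groups. Ltc4s, the leukotriene C4 synthase of tuft cells, was 2.24-fold lower (adjusted p = 0.0123), and Ctsa, a lysosomal carboxypeptidase, 1.98-fold lower (adjusted p = 0.00484). The hormone count was 7 without ribociclib array A and 1 without ribociclib array C. The tuft cell count was 1 without abemaciclib array A and 2 without abemaciclib array C or ribociclib array C. The clock count was 0 without abemaciclib array A and 1 without ribociclib array B or C. The lysosome count was 1 without abemaciclib array A or ribociclib array C, 2 without abemaciclib array C and 3 without ribociclib array B. With the beta-actin covariate the tuft cell and clock counts were 0.

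Among 10216 probe sets with no symbol or with several, 786 were called (7.69%), 462 higher and 324 lower with abemaciclib.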
